A study of Mus musculus with 2031 samples.

Results

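The 10 genes described here belong to the fibroblast growth factor (FGF) pathway and were followed across single cells sorted from the adult mouse brain. They are the receptors *Fgfr1*, *Fgfr2* and *Fgfr3*, the ligands *Fgf1* and *Fgf2*, the transcription factors *Etv4* and *Etv5*, and the feedback inhibitors *Spry1*, *Spry2* and *Spry4*. They were taken by name, as the 10 rows with these symbols among the 49671 gene identifiers of the count files. The names were chosen with earlier results of these data known. Cells came from untreated C57BL/6J mice at postnatal day 56, and the samples differed by brain area, cortex or hippocampus. Each area had 2 cell suspensions. The cortical suspensions, 1C and 2C, were each made from 1 animal of the same litter, whereas the hippocampal suspensions, 1H and 2H, were each pooled from 4 littermates of 2 further litters, so that area cannot be told apart from litter and pooling. Cells were dissociated with papain, cleared of myelin and sorted into plates as positive for ACSA-2, an antibody to the astrocyte membrane protein ATP1B2, and negative for the oligodendrocyte antigen O1 and for a dead-cell dye, and full-length cDNA was made by Smart-seq2. Of the 2030 cells analysed, 26.7%, 25.7%, 22.9% and 24.8% came from 1C, 2C, 1H and 2H.

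FGFs bind receptor tyrosine kinases at the cell surface, with heparan sulfate chains as partners, and the activated receptors pass the signal through adaptor proteins and the RAS and ERK kinases into the nucleus. ERK activity raises transcription of *Etv4* and *Etv5*, 2 ETS factors of the PEA3 family, and of *Spry* genes, whose Sprouty proteins damp the same cascade. In the brain *Fgfr3* is known as an astrocyte gene, *Fgfr2* is also used by oligodendrocytes, and FGF signaling is known to act on how mature astrocytes keep their state.

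The study divided its astrocytes into 5 subtypes, AST1 to AST5. In the copy of its list used here, in which 33 cells are missing, 1781 cells are astrocytes. AST1, AST2 and AST3 made up 36.9%, 31.2% and 25.4% of these, and AST4 and AST5 had 91 and 26 cells. Mural cells (the contractile cells of the vessel wall) were 6.60% of all cells, and 30 endothelial, 17 neuronal, 11 microglial and 9 oligodendrocytic cells were present. Cells held between 600758 and about 3238220 gene counts, with a median of about 1458410. The sum over 5 astrocyte markers (*Aldh1l1*, *Gja1*, *Slc1a3*, *Aqp4*, *Gjb6*) lay between 19001 and 21151 counts per 1000000 gene counts (CPM) in the astrocytes of the 4 suspensions, with all 5 markers present, and at no more than 448.5 CPM in mural cells. The name of each other type was borne out by its own markers, except that *Rbfox3* was at 0 in the neuronal cells. Endothelial cells also held mural markers, at 15847 CPM pooled, beside 14257 CPM of endothelial markers. Levels are given as CPM of counts summed over the cells of a type in a suspension (a sum needed at least 5 cells), and as CPM per kilobase of exon (RPKM) where genes are compared with each other.

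In astrocytes the pathway was represented by a few abundant members. Per length, *Spry2* (212.2 ± 26.2 RPKM, mean ± SD of the 4 suspensions, as for the values that follow) and *Fgfr3* (150.6 ± 24.4 RPKM) were the highest. *Etv5* followed at 54.8 ± 4.78 RPKM, with every suspension below every value of *Fgfr3*. *Fgfr1* reached 34.6 ± 5.41 RPKM and *Fgf1*, which encodes a ligand without a classical secretion signal, 24.7 ± 3.21 RPKM. *Fgfr2* lay at 17.2 ± 2.32 RPKM and *Etv4* at 16.1 ± 3.54 RPKM, a pair whose spreads overlapped. *Spry4* came to 7.82 ± 1.91 RPKM, whereas *Spry1* (0.583 ± 0.615 RPKM) and *Fgf2* (0.531 ± 0.298 RPKM) were near 0. Thus each role had 1 leading gene in astrocytes: *Fgf1* of the ligands, *Fgfr3* of the receptors, *Etv5* of the transcription factors and *Spry2* of the inhibitors.

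The share of astrocytes with at least 1 count followed almost the same order. *Spry2* was found in 95.3 ± 3.51% of cells and *Fgfr3* in 91.2 ± 4.13%. *Fgfr1* was found in 64.4 ± 4.50%, *Etv5* in 43.6 ± 1.47% and *Fgfr2* in 38.5 ± 6.71%. *Etv4* had counts in 31.5 ± 7.23%, *Fgf1* in 28.1 ± 4.65% and *Spry4* in 11.01 ± 2.79% of astrocytes, while *Fgf2* and *Spry1* had them in 1.55 ± 0.490% and 0.539 ± 0.322%. As a measure of background, *Fgfr3* had 4 counts in all in 3 mural cells (2.24% of them, 95% Wilson interval 0.764 to 6.38%), at a median of 1216970 gene counts per mural cell and 1469310 per astrocyte, and it had 4 counts in 3 of 17 neuronal cells. Thinning each cell to 50000 counts gave 89.6% for *Fgfr3* and 25.8% for *Etv4*. With ln(counts per 10000 + 1) above 1 in place of 1 count, *Etv4* was found in 12.3%, *Spry4* in 5.84% and *Fgf2* in 0.796% of astrocytes, and *Fgfr3* in 84.9%. The intervals on ratios of levels given below take each read as independent. The libraries carried no molecular identifiers, so these intervals are too narrow and leave out the spread between cells. Wilson intervals cover the sampling of cells alone.

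Among cells that had a count, the level was less different between members than the share of cells was. The median over such astrocytes was 1033.1 CPM for *Fgfr3*, 451.8 CPM for *Etv5* and 450 CPM for *Fgfr1*. *Spry2*, *Fgf1* and *Fgfr2* had medians of 407.1, 382.3 and 376.7 CPM, and *Spry4* and *Etv4* of 198.98 and 132.3 CPM. These medians are not divided by exon length, so they do not rank the members per length. A difference in a summed level can come from fewer cells with the transcript or from less RNA in each, and sums alone do not tell these apart.

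**Figure D1:**
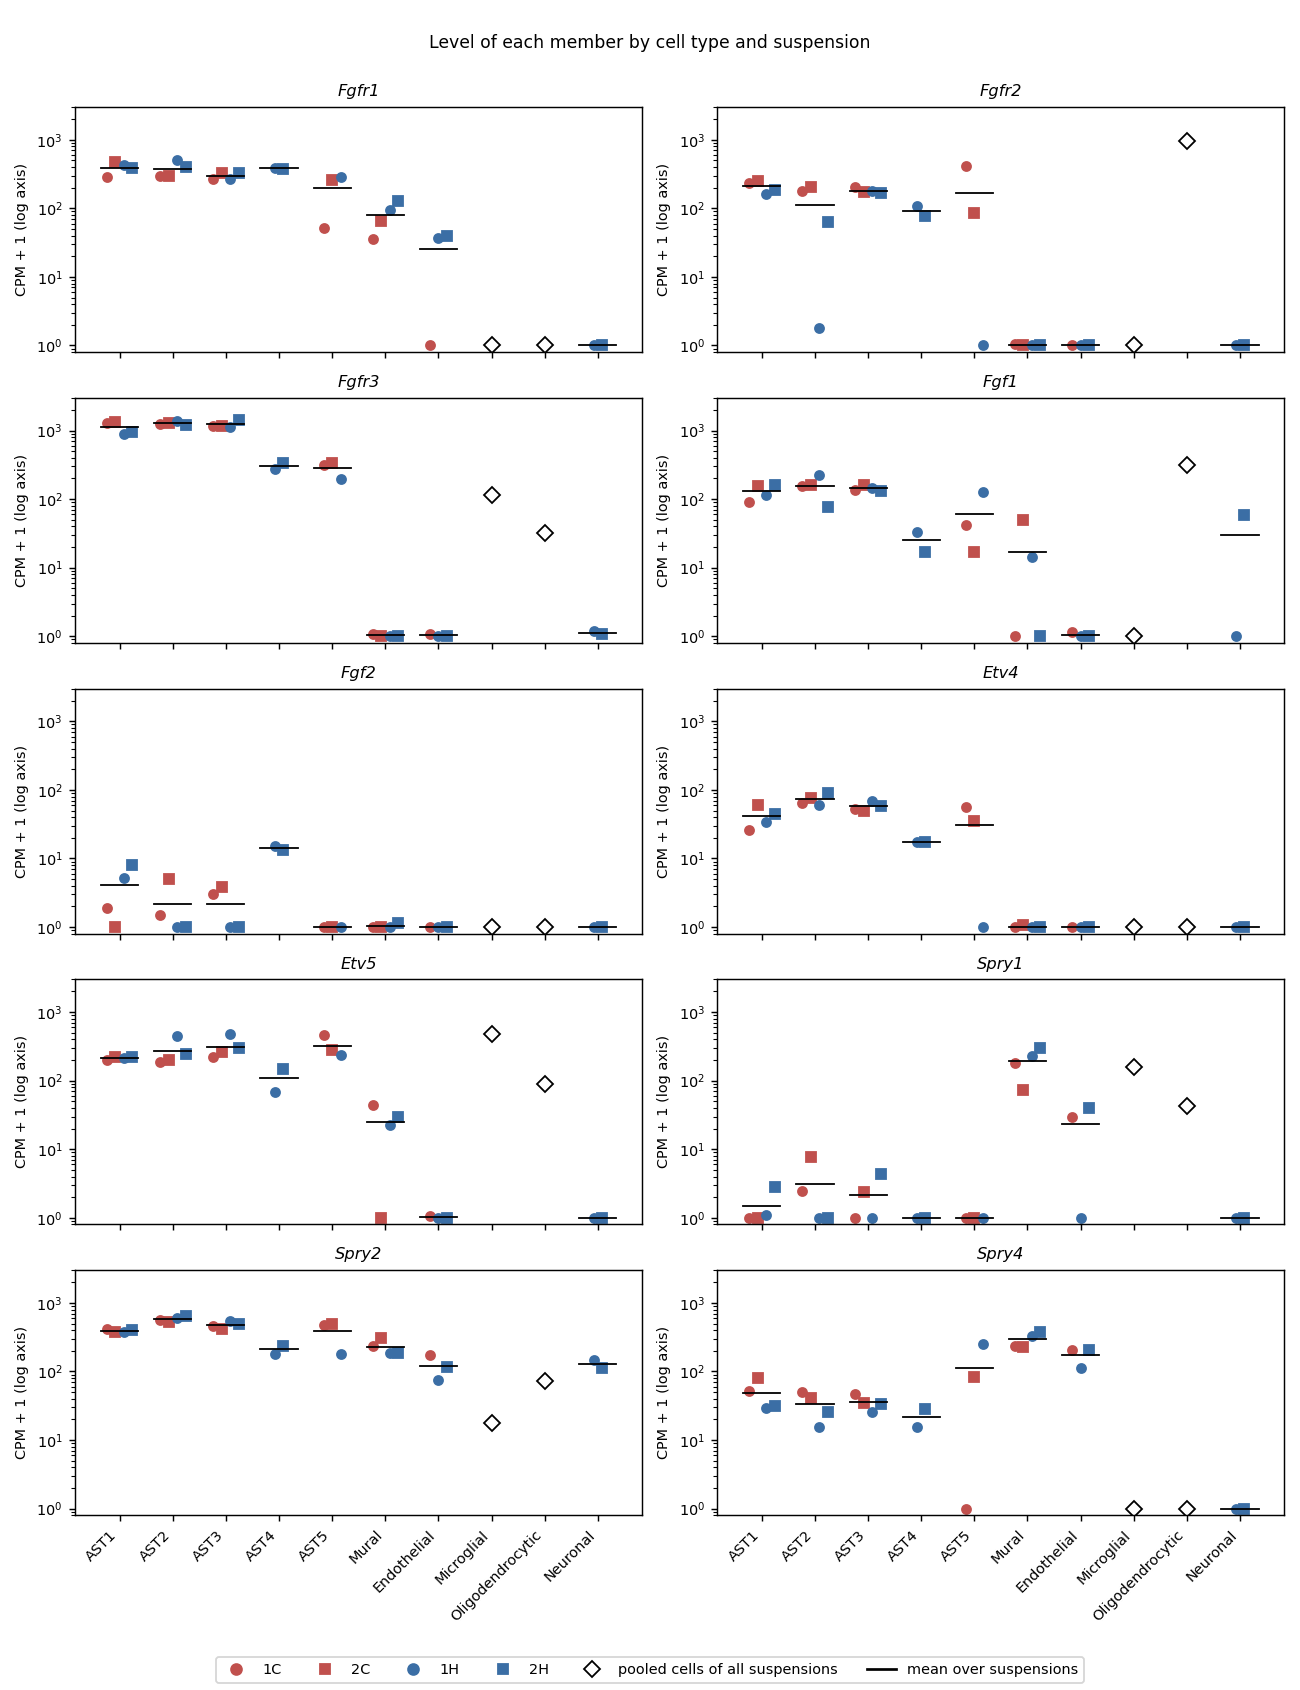
CPM (log axis) of the 10 members in each cell type, 1 point per suspension with at least 5 cells of the type. *Fgfr3* lies at means of 1112 CPM or more in AST1 to AST3, at 198.4 to 334.9 CPM in AST4 and AST5 and close to 0 in mural and endothelial cells, where *Spry4* is high; *Spry1* is high in mural cells.

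The promoters of 6 of the 10 members were found in RefSeq (GRCm38.p6, 250 bases before to 50 after the transcript start), and 4 of them are shown: those of the receptor and the transcription factor (1 of 2 windows each) and the inhibitor that led in astrocytes, and that of *Spry1*, an inhibitor near 0 in astrocytes that had counts in mural cells. Capitals mark AGGAAG, the core bound by PEA3 factors such as ETV4 and ETV5; all other bases are in lower case.

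*Fgfr3* promoter (chr5:33721474-33721773, plus strand): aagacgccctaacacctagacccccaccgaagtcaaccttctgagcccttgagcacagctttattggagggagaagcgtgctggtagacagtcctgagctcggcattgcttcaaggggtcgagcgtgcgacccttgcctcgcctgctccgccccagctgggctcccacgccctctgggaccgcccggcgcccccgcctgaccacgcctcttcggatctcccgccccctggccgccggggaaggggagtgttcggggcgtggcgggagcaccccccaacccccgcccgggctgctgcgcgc
*Etv5* promoter (chr16:22438319-22438618, minus strand): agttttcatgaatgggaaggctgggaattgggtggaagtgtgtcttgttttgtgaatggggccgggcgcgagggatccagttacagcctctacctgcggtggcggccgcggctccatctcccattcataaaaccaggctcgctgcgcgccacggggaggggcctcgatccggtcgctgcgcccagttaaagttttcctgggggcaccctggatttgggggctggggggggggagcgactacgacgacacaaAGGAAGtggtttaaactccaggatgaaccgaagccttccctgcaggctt
*Spry2* promoter (chr14:105896770-105897069, minus strand): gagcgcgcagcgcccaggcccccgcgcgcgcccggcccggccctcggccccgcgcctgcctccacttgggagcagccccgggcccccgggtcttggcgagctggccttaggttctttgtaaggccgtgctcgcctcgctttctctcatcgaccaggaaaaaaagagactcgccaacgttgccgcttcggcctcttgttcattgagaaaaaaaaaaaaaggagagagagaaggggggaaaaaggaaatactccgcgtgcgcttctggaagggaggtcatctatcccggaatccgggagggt
*Spry1* promoter (chr3:37639697-37639996, plus strand): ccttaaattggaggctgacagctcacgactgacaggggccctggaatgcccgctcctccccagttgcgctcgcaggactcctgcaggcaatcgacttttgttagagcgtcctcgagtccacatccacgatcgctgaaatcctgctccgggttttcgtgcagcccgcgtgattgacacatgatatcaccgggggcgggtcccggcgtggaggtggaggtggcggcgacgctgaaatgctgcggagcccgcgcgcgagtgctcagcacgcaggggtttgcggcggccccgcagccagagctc

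The *Etv5* window shown holds AGGAAG at bases 1 to 6 after the start base, on the strand of the gene. Over the 8 promoters of the 6 members, AGGAAG on either strand occurred in 3 (*Fgf2*, *Fgfr2* and *Etv5*), and in 35.4% of all 32851 RefSeq promoters of this length. The stricter ETS sequence CCGGAAG, also searched on both strands, was in none of the 8 and in 8.86% of all promoters. GC content was 69.7% for the *Fgfr3* promoter shown, 64.3% for *Spry1*, 62.7% for *Spry2* and 60% for the *Etv5* window shown, against a median of 52.7% over all promoters. The other *Etv5* window (74% GC) and the other *Fgfr3* window (73%) hold no AGGAAG. No promoter window was used here for *Fgfr1*, *Fgf1*, *Etv4* or *Spry4*.

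*Fgfr3* was lower in AST4 and AST5 than in the other astrocyte subtypes. This receptor gene (ENSMUSG00000054252.17, GRCm38 chr5:33721674-33737068, plus strand) had 1283, 1320, 899.2 and 945.9 CPM in the AST1 cells of 1C, 2C, 1H and 2H. In AST2 the same suspensions gave 1243, 1290, 1398 and 1223 CPM, and in AST3 they gave 1179, 1172, 1136 and 1409 CPM. The values of these 3 subtypes overlapped each other. In AST4, a subtype found mainly in the hippocampus, *Fgfr3* stood at 273.2 CPM in 1H and 334.9 CPM in 2H, below every suspension of AST1, AST2 and AST3. In AST5 the 3 suspensions with enough cells had 318.1, 330 and 198.4 CPM, which overlapped AST4 and were again below the other 3 subtypes. The 2 AST4 cells of 1C (1446 CPM, from 1 of the cells) and the 2 AST5 cells of 2H (1881 CPM) were too few for a sum.

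The fall of *Fgfr3* in AST4 was also seen in the share of cells. Counts were present in 48.8% of AST4 cells of 1H and 54.2% of those of 2H, against 93.4 ± 2.37% of AST1, 96.05 ± 2.81% of AST2 and 95.6 ± 2.02% of AST3 cells over the 4 suspensions. AST4 did not overlap AST1, AST2 or AST3 in this share, while these 3 overlapped each other. In an edgeR fit of all subtype sums, *Fgfr3* was lower in AST4 than in the other subtypes by a log2 fold change of -2.12 (SE 0.232, adjusted p = 0.000297). It was the only one of the 10 members called, against a background of 0.527% of all 18233 genes called lower. Because the subtypes had been defined by clustering these same counts, this and the following p-values between subtypes or types are no independent evidence, and p-values measure the spread between suspensions only. The call held in 11 of 12 alternatives, with adjusted p between 2e-08 and 0.0784; without suspension 2H it was lost (log2 fold change -2.08). AST4 had sums in 1H and 2H alone, so without either the lone AST4 sum was assumed to vary like the sums of the other subtypes. Within the hippocampus, 9 reverse transcription dates had at least 5 cells of both AST4 and the other astrocytes. *Fgfr3* was lower in AST4 on each of them, with a median over dates of 226.7 CPM against 970 CPM. These dates divide the cells of the same suspensions, 1H and 2H, and are not replicates.

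The remaining members in AST4 mostly pointed the same way without passing the test. *Fgf1* had 32.5 and 15.7 CPM in the AST4 sums of 1H and 2H, from 5 of 91 cells, where AST1, AST2 and AST3 sums ranged from 76.4 to 222.1 CPM (log2 fold change -3.00, SE 0.710, adjusted p = 0.0979). *Spry2* had 180.6 and 237.5 CPM in AST4, below every AST1, AST2 and AST3 sum, the lowest of which was 370 CPM (-1.40, SE 0.349, adjusted p = 0.126). *Etv5* stood at 66.6 and 148.6 CPM, again below the other 3 subtypes, whose lowest sum was 184.1 CPM (-1.67, SE 0.454, adjusted p = 0.180). *Etv4* had 16.3 and 16.6 CPM in AST4, and AST1 to AST3 ranged from 25.3 to 89.2 CPM (-1.82, SE 1.41, adjusted p = 1). *Fgfr1* at 390 and 377.6 CPM lay inside the range of the other subtypes (-0.33, SE 0.419, adjusted p = 1), with counts in 67.03% of AST4 cells. *Fgf2*, barely present elsewhere, had 13.9 and 12.2 CPM, but 5 cells carried all of it and 1 cell alone all of that in 1H.

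The calls for these other members depended on how the comparison was made. When only sums of at least 20 cells were used, *Etv5*, *Etv4*, *Spry2*, *Fgf1* and *Fgfr3* were all called lower in AST4, where 3.6% of all genes were. DESeq2 called *Etv5*, *Spry2*, *Fgf1* and *Fgfr3* lower and *Fgf2* higher, where it called 11.5% of all genes. On each of the 9 dates, *Fgf1* and *Spry2* were also lower in AST4, *Etv4* was lower on 8 of 9 and *Etv5* on 7 of 9, and *Etv5* was higher in AST4 in 1 of the 2 library PCR blocks. Markers moved with the subtype as well. The astrocyte marker sum was 14037 and 15729 CPM in the 2 AST4 sums, with all 5 markers present, and the sum over 9 immediate early genes was 2470 to 3839 CPM in AST4 against 206.5 to 344.8 CPM in AST1 and 927.7 to 1943 CPM in AST3. AST4 cells had a median of 1405690 gene counts and 2562 genes, against 1992 genes in AST1. The part of these in the result was not tested.

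AST5 was a small subtype, and many genes had no count in its sums of 6 to 10 cells. Over all genes tested, the median log2 fold change of AST5 against the other subtypes was -4.55, and 16.6% of genes were called lower. Lower calls were made for *Fgfr3* (-2.70, SE 0.198, adjusted p = 8.56e-07), *Fgfr1* (-1.52, SE 0.365, adjusted p = 0.0112), *Fgf1* (-1.87, SE 0.528, adjusted p = 0.0252) and *Spry2* (-0.92, SE 0.283, adjusted p = 0.0402), 4 of 10 members. With the suspension as a replicate block, 3 members were called (*Fgfr1*, *Fgf1* and *Fgfr3*) and 12.4% of all genes. *Fgfr3* kept its call in 11 of 11 alternatives, whereas *Spry2* kept it in 2 of 11. Without 1C or without 2C 2 members were called, beside 9.56% and 8.53% of all genes, and without 2H 1 was, beside 7.29%. *Fgfr1* had 51.4, 254.4 and 289.3 CPM in the AST5 sums of 1C, 2C and 1H, and *Spry2* had 470.97, 496.6 and 181.2 CPM, which overlapped the other subtypes. *Etv5* was not low in AST5, at 456.8, 283.1 and 232.8 CPM, and counts were present in 10 of 26 cells. The astrocyte marker sum was 6939 to 8041 CPM in AST5, where the lowest sum of AST1, AST2 and AST3 was 18564 CPM. Oligodendrocyte markers summed to 0.23 to 819.3 CPM in AST5. The part of these in the AST5 calls was not tested.

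None of the 10 members was called in AST1, AST2 or AST3 against the other subtypes by edgeR, and none had an unadjusted p under 0.05, where 7, 10 and 0 of 18233 genes were called (0.0384%, 0.0548% and 0%) and 4.29%, 2.62% and 1.89% of genes had an unadjusted p under 0.05. DESeq2 called 1 member in AST1 (*Fgf2*, higher, with counts in 12 cells there, where 3.76% of genes were called higher). In AST2 and AST3 it called no member, beside 4.83% and 3.97% of all genes. If the other subtypes were weighted equally rather than by cell number, *Fgfr3* was called higher in each of the 3, and *Spry2* in AST2, but so were 5.52%, 5.09% and 4.95% of all genes. *Etv5*, which the study lists among the AST3 markers from these cells, had 218.8, 257.4, 477.6 and 296.2 CPM in AST3 and 197.9, 217.5, 212.8 and 218.8 CPM in AST1. The AST3 value was the higher in every suspension, but the difference of AST3 from the other subtypes did not pass (0.54, SE 0.295, p = 0.0864 by the edgeR test). *Etv5* was found in 56.2 ± 3.03% of AST3 and 39.8 ± 4.37% of AST1 cells, and the 2 subtypes did not overlap in that share. AST3 cells were also the deepest of the subtypes, with a median of 1659870 counts. *Spry2* was higher in AST3 than in AST1 sums without overlap, at 453.4, 418.99, 544.2 and 491.2 CPM against 412.6, 377.7, 370 and 398.4 CPM.

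Of the other targets, *Etv4* and *Spry2* differed between AST1 and AST2 without overlap. *Etv4* gave 63.1, 74.6, 60.2 and 89.2 CPM in the AST2 sums of 1C, 2C, 1H and 2H, all above the AST1 values of 25.3, 58.3, 33.4 and 43.3 CPM, although in 1H the AST2 value came from 2 cells. *Spry2* was likewise higher in AST2, at 561.6, 526.6, 594.97 and 645.6 CPM, than in any AST1 sum. Neither difference of AST2 from the other subtypes passed the edgeR test (0.65, SE 0.903 for *Etv4* and 0.43, SE 0.233 for *Spry2*, adjusted p = 1 for both). *Spry4* ranged from 14.5 to 78.6 CPM over the AST1, AST2 and AST3 sums, which overlapped. *Spry1* had counts in 2, 6 and 2 cells of AST1, AST2 and AST3 and in none of AST4 or AST5.

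**Figure D2:**
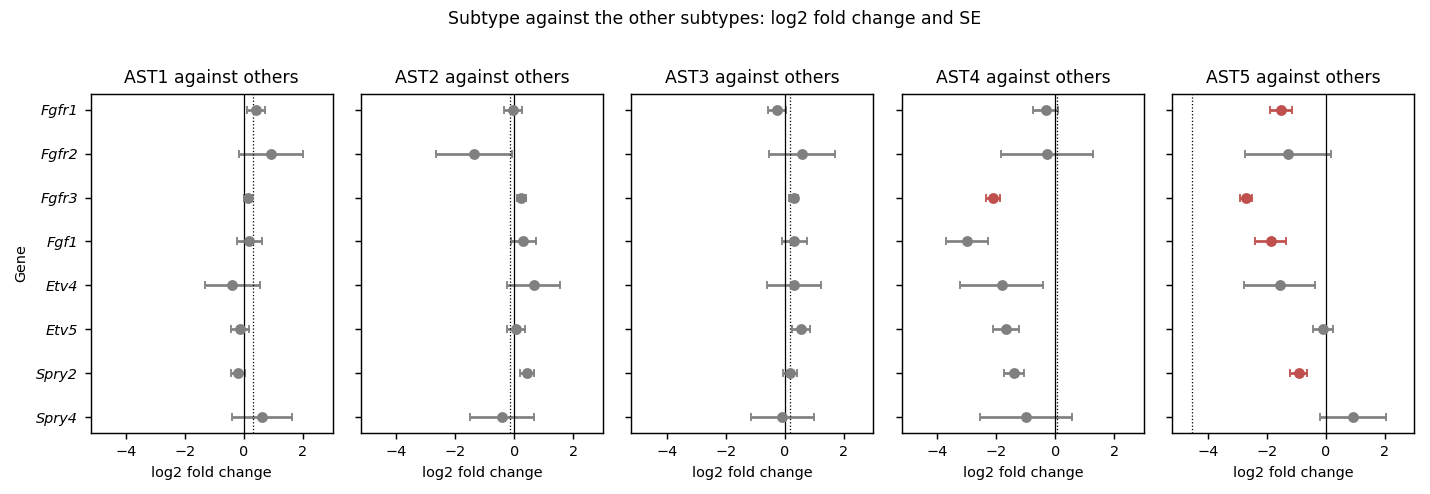
Log2 fold change (with SE) of 8 members in each astrocyte subtype against the other subtypes, from edgeR fits of sums per subtype and suspension; red marks an adjusted p under 0.05 and the dotted line the median of all genes. *Fgfr3* alone is red in AST4, at -2.12, and in AST5 the 4 red members lie to the right of the all-gene median of -4.55.

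The 3 receptor genes were often found in the same astrocyte. Of 1781 astrocytes 24.4% had a count of all 3, 48.3% of 2, 24.8% of 1 and 46 cells (2.58%) of none. Every AST3 cell had at least 1 receptor gene, and 32.7% had all 3. In AST4, 15 of 91 cells (16.5%) had none and 6.59% had all 3, and in AST5 8 of 26 cells (30.8%) had none. All 3 were found in 21.8% of AST2 cells, although *Fgfr3* had a like share in AST2 and AST3. A cell without a count may still have carried the transcript below detection.

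Receptor genes were found together about as often as their separate shares would give. *Fgfr1* and *Fgfr2* shared 26.2% of astrocytes, where the product of their shares was 24.6%, and over cells of a suspension the correlation of their log2(CPM + 1) ranged from -0.01 to 0.09. The correlation of *Fgfr3* with *Etv5* ranged from 0.06 to 0.11 and that with *Spry2* from -0.03 to 0.25 over the 4 suspensions. In sparse counts such weak values are a description only. The cells of a suspension share a preparation, and depth varied between them.

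Most astrocytes without an *Fgfr3* count had counts of *Spry2*, and fewer had the other targets. There were 25, 27, 54 and 46 such cells in 1C, 2C, 1H and 2H. *Spry2* had counts in 96%, 100%, 83.3% and 76.1% of them, and in 98.9%, 97.7%, 95.0% and 93.2% of the astrocytes with *Fgfr3*. *Etv5* had counts in 20%, 33.3%, 33.3% and 28.3% of the cells without *Fgfr3*, against 44.3%, 43.4%, 44.2% and 47.9% of those with it. *Etv4* had counts in 28%, 25.9%, 18.5% and 13.04% of the cells without and 37.2%, 38.6%, 23.01% and 30.9% of those with *Fgfr3*, and *Spry4* in 4%, 11.1%, 7.41% and 8.70% against 14.9%, 12.3%, 8.26% and 9.42%. The shares with *Etv5*, *Etv4* and *Spry4* were thus lower in the cells without *Fgfr3* in all 4 suspensions. For *Spry4* the cells without *Fgfr3* that had a count were 1, 3, 4 and 4. Levels of *Etv5* were also lower without *Fgfr3* in all 4. *Spry4* was higher without it in 2C (67.1 against 41 CPM) and 1H (40.9 against 27.1 CPM), and *Etv4* in 1C (57.8 against 53.9 CPM). *Spry2* was higher without it in 1C (572.5 against 498.3 CPM) and 2C (635.8 against 465.6 CPM). Each of these genes was lower without *Fgfr3* in the other suspensions. In AST4 cells of 1H the shares without *Fgfr3* were higher for *Etv5* (23.8% against 20%) and *Etv4* (14.3% against 5%), but lower in 2H. In the hippocampal suspensions 38.9% and 47.8% of the cells without *Fgfr3* were AST4 cells, against 5.90% and 6.81% of the cells with it. In 1C and 2C, AST5 cells were 8% and 22.2% of those without, against 1.38% and 0.847% of those with it. The cells without *Fgfr3* were shallower in 3 of 4 suspensions.

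**Figure D3:**
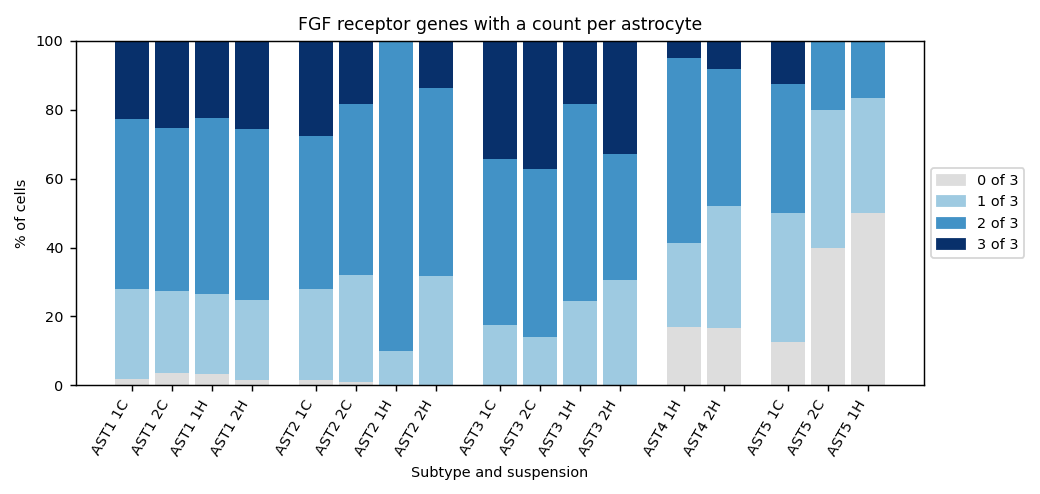
Percent of astrocytes (vertical axis, 0 to 100) with a count of 0, 1, 2 or 3 of the receptor genes *Fgfr1*, *Fgfr2* and *Fgfr3*, stacked for each subtype and suspension. Most AST1, AST2 and AST3 cells carry 2 or 3 of them, while 16.5% of AST4 and 30.8% of AST5 cells carry none.

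*Fgfr1* and *Fgfr2* overlapped between AST1, AST2 and AST3. *Fgfr1* (ENSMUSG00000031565.18, chr8:25513654-25575718, plus strand), a receptor used by many cell types, had means of 392.3, 383.7, 371.9 and 295.4 CPM in AST1, AST4, AST2 and AST3, and every neighbour in that order overlapped the next. The AST5 mean was lower, at 198.4 CPM, and was called as given above. *Fgfr2* (ENSMUSG00000030849.18, chr7:130162451-133123350, minus strand) had 234.3, 252.6, 159.3 and 184.2 CPM in AST1 and 205.5, 171.05, 178 and 168 CPM in AST3. In AST2 it gave 177.4 and 205.8 CPM in the cortical suspensions but 0.782 and 63.2 CPM in 1H and 2H, where AST2 held 10 and 22 cells. In AST4 it reached 106.9 and 76.4 CPM, and in AST5 415.97, 83.1 and 0 CPM in 1C, 2C and 1H. *Fgfr2* neighbours overlapped throughout the astrocyte subtypes, and the first gap in the order fell between AST4 and mural cells.

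Of the ligands, *Fgf1* was found in astrocytes of every suspension and *Fgf2* in few of them. *Fgf1* (ENSMUSG00000036585.15) gave 135.97, 156.9, 114.1 and 133.5 CPM in the astrocytes of 1C, 2C, 1H and 2H. *Fgf2* (ENSMUSG00000037225.13, chr3:37348346-37410108, plus strand), whose exons overlap those of *Nudt6* on the other strand, gave 1.09, 3.15, 4.25 and 5.90 CPM there, from 27 of 1781 cells, in which its median was 186.7 CPM. Among the other 20 ligand genes examined, 9 had no count in astrocytes, and the highest were *Fgf13* (23.9 ± 15.8 CPM) and *Fgf14* (6.46 ± 2.16 CPM), which encode intracellular FGFs that bind sodium channels and are not secreted.

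The targets also differed from each other in their spread. *Etv5* (ENSMUSG00000013089.15, chr16:22381309-22439719, minus strand) had 202.4, 220.9, 250 and 226.6 CPM in the astrocytes of 1C, 2C, 1H and 2H, whereas *Etv4* (ENSMUSG00000017724.14, chr11:101769742-101785371, minus strand) had 54.1, 63.3, 37.9 and 45.2 CPM. *Spry2* (ENSMUSG00000022114.4, chr14:105891947-105896819, minus strand) had 501.9, 474.1, 383.3 and 412.2 CPM, and *Spry4* (ENSMUSG00000024427.6) 47.4, 42.3, 28.96 and 30.04 CPM. The 2 groups of suspensions did not overlap for *Etv4*, *Spry2* or *Spry4*, each higher in cortex, nor for *Etv5*, higher in hippocampus. With so few suspensions a lack of overlap is common by chance, and its share over all genes was not counted. The astrocyte sums also mix subtypes. Within AST3 the direction turned for *Etv4* and *Spry2*, with log2 fold changes of hippocampus against cortex of 0.38 (SE 0.248) and 0.30 (SE 0.106). Within AST1 their values were -0.10 (SE 0.554) and -0.0073 (SE 0.125). *Spry4* kept its direction, at -1.12 (SE 0.380) in AST1 and -0.42 (SE 0.369) in AST3. *Etv5* did as well, at 0.09 (SE 0.155) in AST1 and 0.75 (SE 0.272) in AST3. None of these differences was called by edgeR.

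Over the 17 sums of astrocyte subtypes, the genes whose profile was most like that of *Fgfr3* (Pearson correlation of log2 levels over 6738 genes of at least 20 CPM) were *S1pr1* (r = 0.98), *Gpr37l1* (0.97), *Hrh1* (0.97), *Fzd4* (0.97) and *Atp13a4* (0.97), where the median gene had 0.26. For *Etv5* they were *Pgm1* (0.85), *Epas1* (0.85), *Spsb4* (0.84), *Il33* (0.83) and *Mpv17l* (0.82). For *Spry2*, *Luzp1* (0.92) and *Etnppl* (0.91) led, followed by *Dhrs11*, *Myo6* and *Camk2g* (0.90, 0.90 and 0.89). For *Spry4*, *2410004B18Rik* and *Slc25a29* (both 0.94) led, followed by *Polg* and *Ncoa1* (both 0.92). Over the pairs of 8 members r ran from -0.44 (*Etv4* with *Spry4*) to 0.82. *Spry2* correlated with *Etv4* at 0.82 and with *Fgfr3* at 0.72, and *Fgfr3* with *Fgf1* and *Etv4* at 0.72 and 0.71. *Fgfr3* with *Etv5* gave 0.28 and with *Spry4* 0.08, and *Fgfr1* with *Etv5* gave -0.38. These sums share suspensions, and some hold few cells. The AST2 sums of 1H and 2H hold 10 and 22 cells, those of AST4 41 and 48, and those of AST5 6 to 10. The values are therefore a description.

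Outside the astrocytes the same pathway had another set of members. In mural cells the receptors *Fgfr3* and *Fgfr2* were all but missing, with 4 counts and 2 counts over all mural cells, and 3 of the 4 *Fgfr3* counts were in 1C. The astrocyte level was 46762 times the mural level for *Fgfr3* (95% interval with reads taken as independent, 18264 to 171626) and 15341 times for *Fgfr2* (4247 to 126674). Of the receptors, *Fgfr1* was the one with counts in number, at 35.2, 63.6, 93.01 and 125 CPM in 1C, 2C, 1H and 2H, below the astrocyte values of 277.2 to 397.7 CPM. Its fitted fall did not pass (log2 fold change -2.93, SE 1.25, adjusted p = 0.159). Both inhibitors that were low in astrocytes were high here. *Spry1* (ENSMUSG00000037211.12, chr3:37639947-37644598, plus strand) gave 182.3, 72.3, 228.5 and 297.4 CPM in mural cells and 0.728, 4.14, 0.0685 and 1.84 CPM in astrocytes. *Spry4* gave 232.8, 228.7, 331.7 and 374.1 CPM, against 28.96 to 47.4 CPM in astrocytes. For both genes every mural value was above every astrocyte value.

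*Spry4* rose in mural cells (log2 fold change 2.41, SE 0.432, adjusted p = 0.0115), the 1 member called higher, where 3.29% of 15974 genes were called higher. *Spry1*, with a pooled ratio of 126.2, did not pass (6.36, SE 2.06, adjusted p = 0.0626), although mural and astrocyte values did not overlap. Called lower were *Fgfr3* (adjusted p = 0.000238), *Fgfr2* (0.00309), *Etv4* (0.0153), *Fgf2* (0.0330) and *Spry2* (0.00886), 5 members, beside 16.7% of all genes. *Spry2* fell from 383.3 to 501.9 CPM in astrocytes to 237.5, 301.9, 187.4 and 186.9 CPM in mural cells (-1.57, SE 0.267), without overlap. *Etv5* gave 43.6, 0, 21.7 and 28.9 CPM in mural cells and the astrocyte level was 8.37 times the mural one (adjusted p = 0.133), while *Etv4* had 1 count in all. *Etv1*, another PEA3 gene outside the 10 members, stood at 91.7 CPM in the pooled mural cells and 22.4 ± 6.64 CPM in astrocytes.

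The median log2 fold change of all genes in mural cells was -1.22, so the fall of *Spry2* was close to it and the rise of *Spry4* stood further from it. With the suspension as a replicate block, the members called fell from 6 to 3, *Fgfr3*, *Fgfr2* and *Spry2*, where 3.04% of all genes were called, and *Spry4* did not pass. Leaving out 1 suspension left 3 members called without 2C or 1H (2.78% and 2.47% of all genes), and 1, *Fgfr3*, without 1C or 2H (1.63% and 1.67%), so calls over all genes dropped as well. *Fgfr3* was called in 11 of 11 alternatives, *Fgfr2* in 9, *Spry2* in 8, *Spry4* in 7 and *Spry1* in 4. By reverse transcription date, *Spry4* was higher in mural cells than in astrocytes on 9 of 11 dates and *Spry1* on 11 of 11. *Spry2* was lower on 11 of 11. The dates divide the cells of the same 4 suspensions and are no further replicates. Mural cells with a count were 32.8% for *Spry1* and 43.3% for *Spry4*, against 0.561% and 11.2% of all astrocytes. Immediate early genes summed to 5776 to 21544 CPM in mural cells and 572.2 to 973.5 CPM in astrocytes, and the part of this in the result was not tested.

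In endothelial cells *Spry4* was again high and most other members were low. Over 30 cells *Fgfr2*, *Fgf2* and *Etv4* had no count, where 3 counts would be 0.0701 CPM. *Fgfr3* and *Etv5* had 1 count each and *Fgf1* had 2. In astrocytes *Fgf2* was found in only 1.55% of cells, so 30 cells say little about it. *Spry4* gave 206.2, 111.99 and 206.9 CPM in the 3 suspensions with enough cells (1C, 1H, 2H) and rose (1.53, SE 0.441, adjusted p = 0.0386), the 1 member called higher, where 3.44% of genes were. *Spry2* gave 172.1, 73.7 and 115 CPM and fell (-2.57, SE 0.309, adjusted p = 0.00168), while *Spry1* at 28.7, 0 and 39.3 CPM did not pass (adjusted p = 0.254). Lower calls covered 8 members (all but *Spry1* and *Spry4*), beside 19.2% of all genes and an all-gene median of -2.16, and the replicate block left 3 members called (*Fgfr3*, *Fgfr2*, *Spry2*) and 2.72% of all genes. Without 2C, whose endothelial cells formed no sum, 4 were called (5.91% of all genes), and without any 1 of the others 2 were (1.51% to 2.48%). *Fgfr1*, at 0, 35.4 and 38.4 CPM, passed narrowly (adjusted p = 0.0472). Endothelial markers summed to 12700 to 17990 CPM in these endothelial sums. Mural markers summed to 10000 to 17126 CPM there, with 4 of 5 present, against 47754 to 56982 CPM in mural cells. In mural sums endothelial markers came to 202.9 to 375.8 CPM, with 4 of 4 present. The part of these marker levels in the *Spry4* and *Spry1* levels was not tested.

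**Figure D4:**
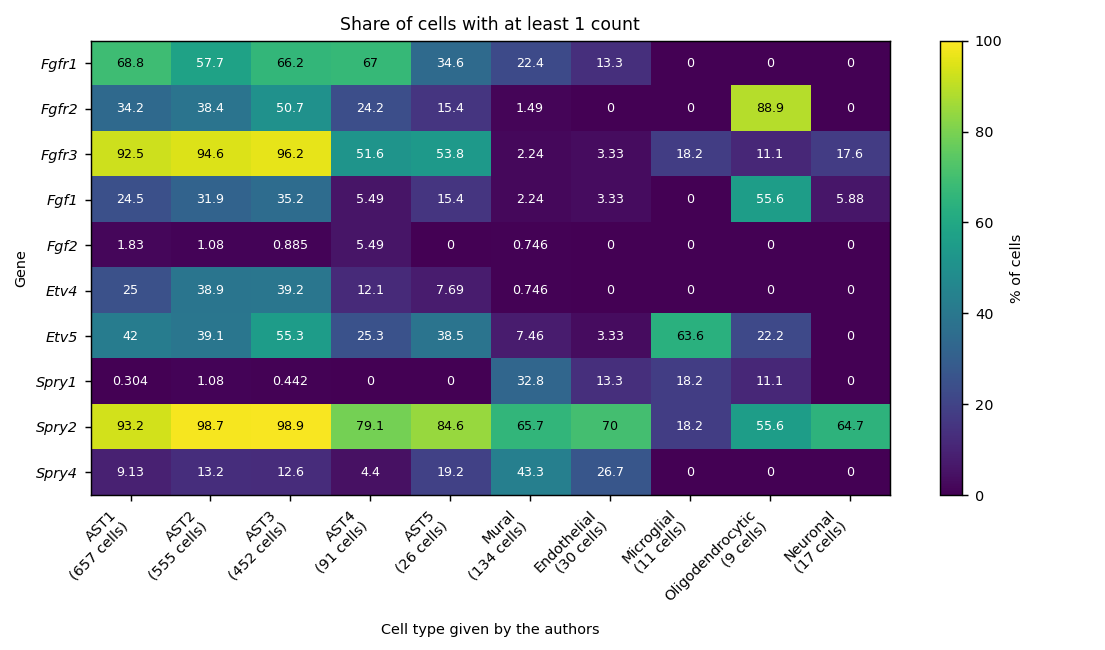
Percent of cells with at least 1 count of each member (rows) in each cell type (columns), pooled over suspensions. *Fgfr3* and *Spry2* are found in most astrocytes of AST1 to AST3, *Spry1* and *Spry4* in 32.8% and 43.3% of mural cells, and *Fgfr2* in 88.9% of oligodendrocytic cells.

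The 3 rare types are given by their pooled values and were not tested. Microglial and oligodendrocytic cells formed no sum of 5 cells in any suspension, and neuronal cells formed 2, of 8 cells in 1H and 9 in 2H. In the 9 oligodendrocytic cells *Fgfr2* reached 966.3 CPM with counts in 8 cells (88.9%, Wilson interval 56.5 to 98%), 5.39 times the astrocyte level. *Fgf1* stood at 308.8 CPM in the same cells, with counts in 5, 2.26 times the astrocyte level. *Fgfr1* had none (3 counts would be 0.182 CPM), and *Fgfr3* stood at 31.2 CPM from 1 cell. In the 11 microglial cells *Etv5* reached 473.7 CPM with counts in 7 (63.6%, interval 35.4 to 84.8%), 2.12 times astrocytes, and *Fgfr1*, *Fgfr2*, *Fgf1* and *Etv4* had no count. *Fgfr3* had counts in 2 of these 11 cells (113.4 CPM) and *Spry1* in 2 (155.7 CPM), while the astrocyte markers summed to 844.2 CPM with 4 of 5 present. In the 17 neuronal cells *Spry2* gave 129.2 CPM in 11 cells, *Fgfr3* had 4 counts and *Fgfr1* and *Fgfr2* had none. *Spry2* was thus the 1 member with counts in more than 10 neuronal cells.

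The question of area was asked over astrocytes of the 4 suspensions. *Fgfr3* had 1209 and 1239 CPM in the cortical and 878.1 and 986.3 CPM in the hippocampal suspensions (log2 fold change of hippocampus against cortex -0.37, SE 0.0780). *Fgfr1* ran the other way, with 277.2 and 322.01 CPM in cortex and 397.7 and 371.3 CPM in hippocampus (0.38, SE 0.110). *Fgfr2* had 198.5 and 196.7 CPM in cortex and 151.7 and 162.1 CPM in hippocampus (-0.31, SE 0.0782). Over all astrocytes the cortical and hippocampal values did not overlap for any of the receptors. How many of all genes lacked overlap was not counted. With so few suspensions, here and within subtypes, a lack of overlap is common by chance. The direction of *Fgfr1* was opposite to that of *Fgfr2* and *Fgfr3*, but *Fgfr1* did overlap within AST1 and within AST3, as given below. *Spry2* (-0.27, SE 0.0679) and *Spry4* (-0.58, SE 0.142) were lower in hippocampus, and *Etv5* gave 0.19 (SE 0.0977).

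None of the 10 members was called between areas by edgeR. Of 19160 genes none was (0%), and 2609 genes (13.6%) and 5 members had an unadjusted p under 0.05. The 5 were the 3 receptors, *Spry2* and *Spry4*, with adjusted p from 0.231 to 0.281. DESeq2 called the same 5 members, where it called 9.7% of all genes, and limma called 1, *Fgfr3*, with 2.64% of all genes. The fit had 2 residual degrees of freedom. Within reverse transcription dates, a technical batch named by the labels, *Fgfr3* was lower in hippocampal than in cortical astrocytes on 10 of the 10 dates that had both, with medians of 914.6 and 1225 CPM. *Fgfr1* was higher on 9 of 10 dates, and *Fgfr2* and *Etv4* were lower on 9 of 10. *Spry2* was lower on 5 of 10 dates and *Spry4* on 7 of 10. Of the 2 blocks of the library PCR, 1 held cells of both areas, and there *Fgfr3* had 884.6 CPM in hippocampus and 1225 CPM in cortex.

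The subtypes did not divide evenly between the areas. AST1 and AST4 were mostly hippocampal (82.95% and 97.8% of their cells) and AST2 mostly cortical (94.2%). Without AST4 cells, an alternative chosen after seeing the data, no member was called and 3 had an unadjusted p under 0.05, as had 12.3% of all genes. Within AST1, *Fgfr3* had 1283 and 1320 CPM in cortex and 899.2 and 945.9 CPM in hippocampus (-0.46, SE 0.0947, p = 0.00780 by the edgeR test, adjusted p = 0.257), without overlap, and was lower in hippocampus on 8 of 10 dates. Within AST3 it had 1179 and 1172 CPM in cortex and 1136 and 1409 CPM in hippocampus, which overlapped (0.17, SE 0.137). The difference between these 2 area effects was 0.63 (SE 0.170), with p = 0.0104 by the edgeR test before and 0.448 after adjustment over 17213 genes, of which none passed (0%). That fit took the AST1 and AST3 sums of a suspension as independent, although both come from the same animals. It includes the AST3 sum of 2H (1409 CPM), which stood apart from the other suspensions.

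By edgeR no member was called between areas within AST1 or AST3 (0% and 0% of 15521 and 14960 genes; 2023 and 1547 genes and 3 and 2 members had an unadjusted p under 0.05). DESeq2 called *Spry4*, *Fgfr2*, *Spry1* and *Fgfr3* within AST1 (4 members, 17.5% of genes). Within AST3 it called *Etv5*, *Spry2* and *Fgf2* (3 members, 13.8%). In AST1 and AST3 limma called no member, beside 0% and 0.00668% of genes. *Spry1* reached at most 1.86 CPM in an AST1 sum and *Fgf2* at most 2.78 CPM in an AST3 sum. The calls of these genes therefore rest on levels near 0. *Etv5* in AST3 had 218.8 and 257.4 CPM in cortex and 477.6 and 296.2 CPM in hippocampus, without overlap (0.75, SE 0.272, adjusted p = 0.488), and was higher in hippocampus on 9 of 10 dates. *Spry2*, lower in hippocampus over all astrocytes, was higher there within AST3 (0.30, SE 0.106) and level within AST1 (-0.0073, SE 0.125). *Fgfr1* overlapped between areas within AST1 (0.14, SE 0.300) and within AST3 (0.05, SE 0.193). It was higher in hippocampus on 5 of 10 dates in each.

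**Figure D5:**
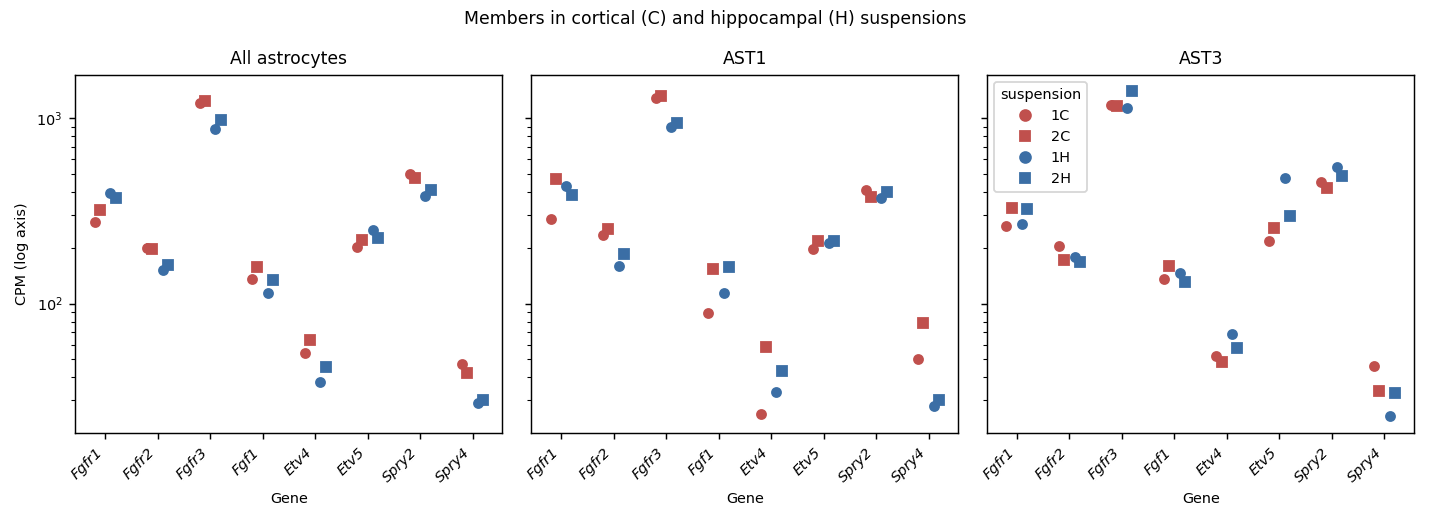
CPM of the members in the astrocytes of the 4 suspensions, cortex (1C, 2C) beside hippocampus (1H, 2H). *Fgfr3* falls from 1209 and 1239 CPM to 878.1 and 986.3 CPM, and *Fgfr1* is higher in both hippocampal suspensions.

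The rest of the pathway was examined through 4 lists of 77 genes, of which 76 were in the table. Per length, its highest astrocyte genes were *Sdc4* (419.7 RPKM, 1069 ± 125 CPM), a heparan sulfate co-receptor, *Gpc5* (119.4 RPKM), *Sdc2* (96.1 RPKM) and *Ncam1* (85.3 RPKM, 739.4 ± 35.6 CPM), an adhesion molecule that binds FGF receptors. *Map2k1* (155.6 ± 40.7 CPM) and *Araf* (155 ± 13.6 CPM) led the kinases, and *Dusp6* (151.5 ± 54.5 CPM), a phosphatase of ERK, and *Lrig1* (115 ± 36.7 CPM) the inhibitors, by CPM and by RPKM alike. *Fgfr4*, the remaining receptor kinase, had a count in 0.0561% of astrocytes.

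In AST4, 1 of 60 list genes tested was called, *Ncam1*, which fell (-1.68, SE 0.271, adjusted p = 0.00747), where 0.527% of all genes were called lower. The median over the 60 genes was -0.09, against 0.05 over all genes. In AST5, 12 of 60 were called lower, near the background of 16.6% of all genes, among them *Ncam1* (-2.83) and *Shc1* (-5.65), an adaptor; *Lrig1*, *Cbl*, *Sos1* and *Flrt1* were also among them, each fitted against sums almost without counts. The median of the list was -3.53 there, against -4.55 over all genes. No list gene was called in AST1, AST2, AST3 or between areas, out of 55 to 60 tested.

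In mural cells 4 of 59 list genes rose and 9 fell, where 3.29% and 16.7% of all genes did, so the falls were near the background. *Shc1* (2.94, SE 0.462, adjusted p = 0.00601) and the ERK-induced gene *Egr1* (5.47, SE 0.919, adjusted p = 0.00903) rose together with *Sdc3* and *Gab1*, an adaptor. *Egr1* reached 1923 CPM in mural cells, against 23.1 ± 12.3 CPM in astrocytes, and *Dusp6* gave 590 CPM without passing. *Cdh2* (-1.81, SE 0.333, adjusted p = 0.0129), the N-cadherin gene, fell, as did *Ncam1*, *Gpc5* and *Fgf13*, which were all but missing in mural cells at 0.00584 CPM each. *Egr1* is also 1 of the 9 immediate early genes above. In endothelial cells 2 of 59 rose (*Plcg1* and *Shc1*) and 11 fell, among them *Ncam1*, *Gpc5*, *Cdh2*, *Sdc4*, *Fgf12* and *Fgf14*, where 3.44% and 19.2% of all genes rose and fell, near the same shares. The list medians were -0.55 in mural and -1.15 in endothelial cells, where the all-gene medians were -1.22 and -2.16.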

How the data were processed

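The deposited files hold raw counts per gene, 1 file per cell, which the authors made with STAR 2.5.2b on GRCm38.p5 and HTSeq after FastQC 0.11.4, per the labels; a table of the whole series gave the same values (40 of 40 member values in the 4 columns that could be matched), and its other 2027 columns were not used. One mural cell had no file here. Reads of 92 ERCC spike-ins and unassigned reads were left out. Of 49671 gene identifiers 49326 had a symbol. Cell types were the authors' list, made with Seurat from these counts; 33 cells were not in the copy used, and 15 had no type. Cells were sorted singly, and no doublet caller was run.

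Counts were summed per type and suspension (at least 5 cells) and tested with edgeR 4.0.16 (R 4.3.3; TMM, filterByExpr, quasi-likelihood) on all genes, with Benjamini-Hochberg adjustment over all genes and a threshold of 0.05. Subtype and type fits had area as a covariate; in the contrast of a subtype, the remaining subtypes counted in proportion to their cells. The SE given with an edgeR fold change, also in the figure, is its size divided by the square root of the F statistic. It was not estimated separately. DESeq2 1.42.0 and limma 3.58.1, on the mean of log2(CPM + 1), other scaling, filters, thinning to 50000 counts, left-out suspensions and larger sums were alternatives. CPM is relative to all gene counts of the cells summed, and RPKM also to the summed exon length of each gene in the GENCODE annotation of GRCm38. Gene coordinates come from that annotation. The labels give no strand for the counting, so reads in exons shared with another gene (164 bases of *Fgfr1*, 314 of *Fgfr2*, 998 of *Fgfr3*, 895 of *Fgf2*, 710 of *Spry1*) are uncertain. Promoters are from RefSeq and motifs were searched as letters. Summaries were made in Python 3.11.15. The fits were checked on simulated sums, whose spread was held below that of the real sums. The check therefore does not show how often real changes were missed or falsely called.

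Sums of 1 suspension come from the same animals and are therefore paired. Differences between the suspensions of an area correlated at -0.021 to 0.017 between types (9 pairs of types, 7375 genes). A fit with the suspension as a replicate block was run beside each test between types, but not for the difference of the area effects. Reverse transcription date (11 dates) and library PCR block were taken from the labels as batches. Of the 11 dates, 10 held cells of several suspensions, so dates are subsets of the suspensions and not replicates. The genes described here, those named by rule (all members, pathway genes past the threshold up to 6 a comparison, the 2 highest of each list in astrocytes, the 5 genes most like *Fgfr3*, *Etv5*, *Spry2* and *Spry4* in profile) and the lists were chosen with earlier results of these data known. One of the genes so named is not reported here.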

Additional observations from a re-analysis of the deposited data

Results flagged for a closer look

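In 1 of the 38 sets of 4 suspensions examined, 1 suspension stood apart from the other 3. *Fgfr3* in AST3 cells had 1409 CPM in 2H, where the other suspensions lay between 1136 and 1179 CPM, so that the gap made up 0.842 of the range; this is past Dixon's critical value. Chance alone gives such a gap in about 1 set of 20.

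The 48 cells with no type in the list (33 not in it and 15 left without a name) entered no comparison, yet 9 of the 10 members lay above the limit of 3 counts (0.0362 CPM) in them. Of the 48, *Spry2* had counts in 44, *Fgfr3* in 38, *Fgfr1* in 25, *Etv4* in 17 and *Etv5* in 17. *Fgf1* had counts in 14, *Fgfr2* in 11, *Spry4* in 7 and *Fgf2* in 1. *Spry1*, the other member, had 1 count in all, below the limit. In the 33 unlisted cells *Fgfr3* stood at 1035.6 CPM, and in the 15 unnamed cells at 688.4 CPM.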

How the results depend on the processing

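Of 340 fold changes of members recomputed under the alternatives, 72.1% kept their direction and their side of the threshold, 76 lost the call, 17 gained it and 2 reversed. Both reversals were the area difference of *Fgfr3* within AST3: -0.43 with limma, and between -0.0054 (without replicate 2H) and 0.34 (without replicate 1H) with 1 suspension left out. Over all astrocytes the members called between areas rose from 0 to 5 with DESeq2 (9.7% of all genes) and 1 with limma (2.64%). Between areas DESeq2 called 4 in AST1 (17.5%) and 3 in AST3 (13.8%). Against the other subtypes, DESeq2 called 1 in AST1 (5.20%) and 5 in AST4 (11.5%). In AST4 limma called 4 (12.4%) and sums of at least 20 cells gave 5 (4.63%). With equal weights for the other subtypes, 1, 2 and 1 members were called in AST1, AST2 and AST3 (5.52%, 5.25% and 4.95%). Equal weights gave 2 in AST5 (16.7%). In mural cells limma called 10 members and 30.5% of all genes, and in endothelial cells 5 members and 2.76% of all genes were called without the low-count filter. With the suspension as a replicate block 3 were called in each of these 2 types (3.04% and 2.72% of all genes). In AST5 3 were called in place of 4 (12.4%), and the block changed no other count of members called. Leaving out 1C or 2C left 1 member called in AST4 (0.617% and 0.572% of all genes). Without 1H or 2H the 1 AST4 sum left was assumed to vary like the other subtypes, so no count is given. The call of *Fgfr3* was lost without 2H. Between areas, too, leaving out 1 suspension leaves 1 in that area, and no count is given. In AST5 it gave 1 to 3 members (7.29% to 12.4% of all genes, both lowest without 2H). In mural cells it gave 1 to 3 (1.63% to 2.78%, 1 without 1C or 2H). In endothelial cells it gave 2 to 4 (1.51% to 5.91%). No member was called in AST1, AST2 or AST3 against the other subtypes (at most 0.0519%). The cause of these changes was not tested. The share of all genes called also moved with the setting. Between areas it was 0% and rose to at most 9.7% over all astrocytes, 17.5% in AST1 and 13.8% in AST3. For AST1, AST2 and AST3 against the other subtypes it ran from 0% to 5.52%, 5.25% and 4.95%. It ran from 0.0846% to 12.4% in AST4, 7.29% to 43.7% in AST5, 1.63% to 35.6% in mural and 1.51% to 45.7% in endothelial cells, where the reported fits called 0.636%, 16.97%, 20% and 22.6%. Sums of at least 20 cells could not be formed for AST5 or endothelial cells. The share of astrocytes with a count fell by thinning to 59.3% for *Fgfr1* and 40.05% for *Etv5*. With a stricter limit, ln(counts per 10000 + 1) above 1, the shares were 50.4% for *Fgfr1*, 25.9% for *Fgfr2*, 84.9% for *Fgfr3*, 19.7% for *Fgf1*, 0.796% for *Fgf2*, 12.3% for *Etv4*, 32.04% for *Etv5*, 79.5% for *Spry2* and 5.84% for *Spry4*. The number of cells with a count (27 and 10) limits what can be said of *Fgf2* and *Spry1* in astrocytes, and the number of cells what can be said of types of under 30 cells.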
